A study of Mus musculus with 18 samples.

Results

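The genes described here are Khdrbs1, Khdrbs2 and Khdrbs3, which form the Khdrbs family, and 7 other RNA-binding regulators of splicing in neural tissue, Qk, Ptbp1, Ptbp2, Srrm4, Msi1, Nova1 and Rbfox1. A probe set, the group of short oligonucleotides that measures 1 transcript on the array, was taken as a member where its annotation gave 1 gene symbol and that symbol was among these 10. This gave 33 probe sets for the 10 genes, out of 34945 probe sets and 18194 genes with a single symbol. Khdrbs1 and Qk had 7 probe sets each, Rbfox1 had 4, Ptbp1, Srrm4 and Msi1 had 3 each, Ptbp2 and Nova1 had 2 each, and Khdrbs2 and Khdrbs3 had 1 each.

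RNA from isolated retinas of Plk3-KO mice and of their WT littermates was measured on Affymetrix mouse genome arrays at postnatal day 0 (P0), at postnatal day 7 (P7) and in the adult, to ask how the loss of Plk3 changes the retinal transcriptome. Plk3 encodes a polo-like kinase. The 6 groups were P0 Plk3-KO and P0 WT, P7 Plk3-KO and P7 WT, and adult Plk3-KO and adult WT, with 3 arrays each and 18 in all. The labels give the strain of all 6 groups as C57Bl/6. The knockout is a germline deletion of exons at the start of the gene, so every cell of the animal carries it. Its mixed ancestry had brought in Rd1, a mutation that destroys rods, which was bred out before use. The labels number the arrays of a group without stating that each came from a separate animal, so the p-values measure the spread between these arrays. Values are the log2 MAS5 signals of the authors, in which a step of 1 is a doubling of the signal.

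Khdrbs1 (Sam68), Khdrbs2 (SLM1) and Khdrbs3 (SLM2) are paralogous proteins of the STAR family that bind A/U-rich RNA through a KH domain and set the choice of exons in several neuronal transcripts, among them the neurexins. Qk (quaking) belongs to the same STAR family and is best known from myelinating and other glia. Ptbp1 and its neuronal paralog Ptbp2 bind pyrimidine-rich RNA and repress exons. Ptbp1 is typical of progenitors and glia and gives way to Ptbp2 as neurons form, and Ptbp2 in turn declines as they mature. Srrm4 (nSR100) promotes neuronal microexons, Msi1 (Musashi-1) marks neural progenitors and also acts on splicing in photoreceptors, and Nova1 and Rbfox1 regulate exons of synaptic and ion channel genes. In the mouse retina, P0 is a time of cell division and rod birth, P7 of differentiation, and the adult tissue consists mostly of rods.

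There were 4 arrays that stood apart, namely P7 Plk3-KO replicate 2 and P7 WT replicate 3, with medians of 6.4 against 6.8 to 6.9 on the other P7 arrays, and adult Plk3-KO replicate 3 and adult WT replicate 3, with medians of 7.2 and 7.0 against 6.3 to 6.5 on the other adult arrays. The 3' minus 5' actin difference, a sign of RNA or amplification quality, was 2.7 on adult Plk3-KO replicate 3 and 1.6 to 1.8 on the other adult arrays, and it was 1.6 on both P7 arrays named, against 0.8 to 1.1 on the other P7 arrays. On the P0 arrays it was 1 to 1.3. As it was higher in the adult, a fit with it as a covariate cannot fully separate it from the change to the adult. Plk3 itself (1434496_at) had 8.0, 8.2 and 7.5 in P0 Plk3-KO, against 6.4, 6.9 and 7.3 in P0 WT, 8.1, 6.1 and 7.7 in P7 Plk3-KO, against 6.0, 6.3 and 6.0 in P7 WT, and 7.4, 8.0 and 7.7 in adult Plk3-KO, against 5.9, 3.9 and 5.8 in adult WT. The value of the array labelled P7 Plk3-KO replicate 2 thus lay among those of P7 WT, while the other 8 Plk3-KO arrays lay above every WT array of their age. Per the study, the probe set covers the far end of the gene, outside the targeted part, so it does not check the deletion. Whether a label is wrong was not tested. Across ages, the mean of 4 rod genes (Nrl, Sag, Gnat1 and Pde6b) was 9.0 to 9.85 on the P0 arrays, 13.4 to 14.08 at P7 and 15.18 to 16.5 in the adult, and that of 4 progenitor and cycling genes (Mki67, Top2a, Ccnd1 and Fgf15) was 12.88 to 13.22, 8.35 to 9.68 and 3.4 to 6.02 at the same ages. The mean of 3 lens genes (Cryaa, Crygb and Bfsp1) ranged over 6.5 to 11.83 on the P0 Plk3-KO arrays and 4.6 to 13.87 on the P0 WT arrays, 4.4 to 5.9 in P7 Plk3-KO and 3.93 to 5.53 in P7 WT, and 5.6 to 9.13 in adult Plk3-KO and 8.43 to 11.57 in adult WT. That of 3 pigment epithelium genes (Rpe65, Ttr and Rdh5) was 5.63 to 6.67 over the P0 arrays, 9.47 to 10.83 at P7 and 11.9 to 13.2 in the adult. Fewer cells of a type and less RNA per cell cannot be told apart in whole retinas, and the part of cell composition in the changes below was not tested.

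Of the 33 probe sets, 26 passed the minimum, a mean above 7 in at least 1 group. In 21 of these the mean was above 7 in all 6 groups. The other 5 passed through some groups only (Khdrbs1 1418630_at, Qk 1425597_a_at and 1429735_at, Ptbp1 1450443_at and Srrm4 1438523_x_at), so that counts over the 26 are partly set by that filter. Members were called between ages but not between genotypes. Between P0 and P7, 9 of the 26 were called in Plk3-KO retinas, 2 as higher and 7 as lower, where 19.8% of all 25085 probe sets tested were called (limma, adjusted p under 0.05). In WT retinas 7 were called, 1 as higher and 6 as lower, against 19.2% of all. Between P7 and the adult, 5 were called in Plk3-KO retinas, against 17.2% of all, and 2 in WT retinas, against 17.3% of all, each of them lower. The arrays of the later and the earlier age did not overlap at all for 14 of the 26 from P0 to P7 in Plk3-KO retinas (3 higher and 11 lower), where 39.7% of all probe sets did not, and for 14 in WT retinas (1 higher and 13 lower), against 39.8% of all. From P7 to the adult this held for 6 in Plk3-KO retinas, all lower, against 28.7% of all, and for 4 in WT retinas (1 higher and 3 lower), against 29.5% of all. The median difference of the 26 between P0 and P7 was −0.73 in Plk3-KO retinas, against −0.68 in WT, beside −0.10 over all probe sets tested in each genotype.

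**Figure D1:**
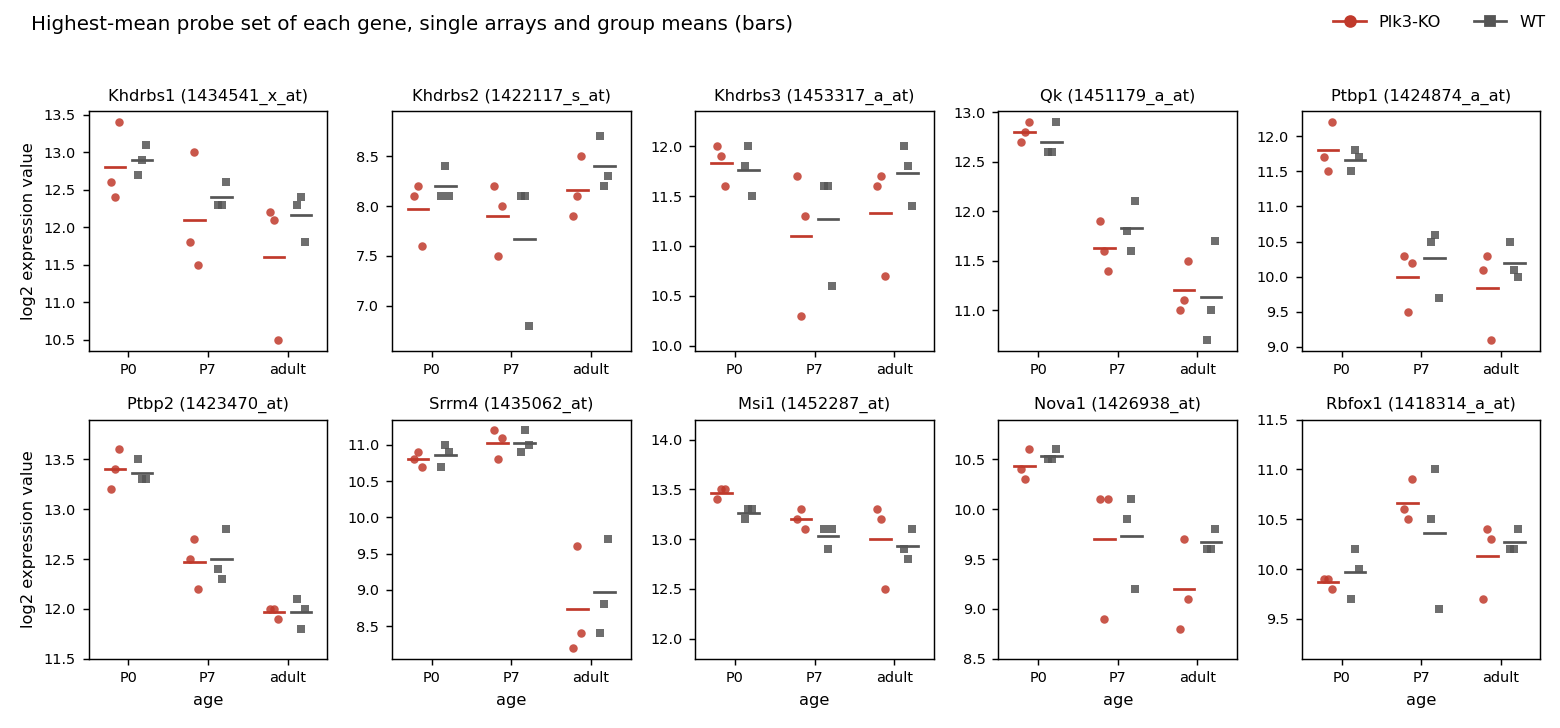
Log2 expression value of the probe set with the highest mean for each of the 10 genes, by age, with 1 point per array (Plk3-KO circles, left, and WT squares, right) and bars at the group means. Ptbp1, Ptbp2 and Qk were lower at P7 than at P0 in both genotypes, Srrm4 was lower in the adult than at P7, and the points of Plk3-KO and WT overlap in every panel at P7 and in the adult.

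Ptbp1 fell between P0 and P7. On 1424874_a_at it had 11.7, 11.5 and 12.2 in P0 Plk3-KO, against 11.5, 11.8 and 11.7 in P0 WT, then 10.3, 9.5 and 10.2 in P7 Plk3-KO, against 10.5, 10.6 and 9.7 in P7 WT, and 10.1, 10.3 and 9.1 in adult Plk3-KO, against 10.5, 10.1 and 10 in adult WT. No P7 or adult array reached the lowest P0 array. The difference P7 minus P0 was −1.80 in Plk3-KO retinas (standard error 0.318, limma, adjusted p = 0.00071) and −1.40 in WT retinas (standard error 0.318, limma, adjusted p = 0.00519). From P7 to the adult it was −0.17 in Plk3-KO retinas and −0.07 in WT, and neither passed the test (limma, adjusted p = 0.762 and 0.908). The other probe sets were called in no comparison. On 1450443_at, above 7 only at P0, the arrays lay between 3.2 and 7.9, and P7 minus P0 was −0.90 in Plk3-KO retinas and −1.37 in WT (limma, adjusted p = 0.543 and 0.316), with no overlap of P0 and P7 in either genotype. These differences are in part set by the minimum, which this probe set passed through P0 alone. On 1458284_at the 18 arrays lay between 7.1 and 8.4.

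Ptbp2, the neuronal paralog, had probe sets that went opposite ways. On 1423470_at it had 13.2, 13.4 and 13.6 in P0 Plk3-KO, against 13.5, 13.3 and 13.3 in P0 WT, 12.5, 12.7 and 12.2 in P7 Plk3-KO, against 12.4, 12.3 and 12.8 in P7 WT, and 12, 12 and 11.9 in adult Plk3-KO, against 12.1, 11.8 and 12 in adult WT. The 3 ages did not overlap in either genotype. It fell by 0.93 from P0 to P7 in Plk3-KO retinas (standard error 0.179, limma, adjusted p = 0.00136) and by 0.87 in WT retinas (standard error 0.179, limma, adjusted p = 0.00264). The further difference of −0.50 to the adult in Plk3-KO retinas and of −0.53 in WT retinas did not pass the test (limma, adjusted p = 0.0652 and 0.0503). On 1423471_at Ptbp2 had 9.5, 9.3 and 9.8 in P0 Plk3-KO, against 9.5, 9.8 and 9.6 in P0 WT, 10.5, 10.3 and 9.9 in P7 Plk3-KO, against 10.5, 9.8 and 10.4 in P7 WT, and 9.3, 9.5 and 9.3 in adult Plk3-KO, against 9.5, 9.3 and 10.1 in adult WT. This probe set was highest at P7. It rose by 0.70 at P7 in Plk3-KO retinas (standard error 0.238, limma, adjusted p = 0.0489) and fell by 0.87 in the adult (adjusted p = 0.0199), and in WT retinas the corresponding differences of 0.60 and −0.60 did not pass (limma, adjusted p = 0.091 and 0.0932). The call of a rise was lost when any of 11 single arrays was left out (adjusted p 0.0529 to 0.176) and in 7 other settings (0.0506 to 0.134), and that of the fall without adult Plk3-KO replicate 1, P7 Plk3-KO replicate 1 or P7 Plk3-KO replicate 2 (adjusted p 0.057, 0.089 and 0.058). The arrays whose removal ended the rise were all 3 of P0 WT, P0 Plk3-KO replicates 1 and 2, P7 Plk3-KO replicates 1 and 2, P7 WT replicate 1, adult Plk3-KO replicates 1 and 2 and adult WT replicate 1.

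The promoters of Ptbp1, Ptbp2 and Qk, the genes whose highest-mean probe sets were called as lower at P7 than at P0 in both genotypes, are shown because these genes fell in the same step. The sequences are the 250 bases before the transcript start in RefSeq (GRCm38.p6), 5′ to 3′ on the strand of the gene, at chr10:79854182-79854431 on the plus strand for Ptbp1, chr3:119783389-119783638 on the minus strand for Ptbp2 and chr17:10319362-10319611 on the minus strand for Qk. Capitals mark GC boxes, searched as GGGCGG and its reverse complement CCGCCC.
Ptbp1: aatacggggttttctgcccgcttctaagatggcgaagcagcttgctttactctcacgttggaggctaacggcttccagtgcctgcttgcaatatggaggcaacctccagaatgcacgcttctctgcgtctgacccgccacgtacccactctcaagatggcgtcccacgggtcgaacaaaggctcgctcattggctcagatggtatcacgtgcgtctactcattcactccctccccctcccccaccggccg
Ptbp2: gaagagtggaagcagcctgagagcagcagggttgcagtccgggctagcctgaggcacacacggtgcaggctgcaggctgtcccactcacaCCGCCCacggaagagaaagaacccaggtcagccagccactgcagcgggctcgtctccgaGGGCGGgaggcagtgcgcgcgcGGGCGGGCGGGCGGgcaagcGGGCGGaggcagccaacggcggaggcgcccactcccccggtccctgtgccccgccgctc
Qk: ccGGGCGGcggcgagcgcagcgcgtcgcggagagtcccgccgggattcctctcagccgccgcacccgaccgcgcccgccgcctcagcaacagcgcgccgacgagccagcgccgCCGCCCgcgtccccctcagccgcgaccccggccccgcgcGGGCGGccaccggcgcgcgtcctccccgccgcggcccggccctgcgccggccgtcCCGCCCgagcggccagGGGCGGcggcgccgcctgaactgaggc
Ptbp2 had 6 GC boxes and Qk 5 in this window, Ptbp1 had 0, and at least 1 was found in 32.7% of the 32851 promoters of the RefSeq table. Matches that overlap were each counted, as in the longest marked run of Ptbp2. The window held 17 CG dinucleotides in Ptbp1, 23 in Ptbp2 and 52 in Qk. A promoter of 7 of the 10 genes was found in that table.

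Srrm4, the activator of neuronal microexons, fell between P7 and the adult. On 1435062_at it had 10.8, 10.9 and 10.7 in P0 Plk3-KO, against 10.7, 11 and 10.9 in P0 WT, 11.2, 10.8 and 11.1 in P7 Plk3-KO, against 10.9, 11.2 and 11 in P7 WT, and 8.2, 9.6 and 8.4 in adult Plk3-KO, against 8.4, 8.8 and 9.7 in adult WT. All adult arrays lay below all P0 and P7 arrays. It fell by 2.30 from P7 to the adult in Plk3-KO retinas (standard error 0.325, limma, adjusted p = 0.000195) and fell by 2.07 in WT retinas (standard error 0.325, limma, adjusted p = 0.00049). From P0 to P7 the difference was 0.23 in Plk3-KO retinas and 0.17 in WT, with neither past the test (limma, adjusted p = 0.679 and 0.766). A second probe set, 1438523_x_at, had 7.9, 6.8 and 8.3 in P7 Plk3-KO, against 6.9, 7.8 and 4.6 in P7 WT, and 4.5, 5.8 and 6.1 in adult Plk3-KO, against 7.0, 6.9 and 6.6 in adult WT. The P7 WT values spread widely, with replicate 3, an array that stood apart, as the lowest. It fell by 2.20 in the adult in Plk3-KO retinas (standard error 0.693, limma, adjusted p = 0.0384), differed by 0.40 in WT retinas (adjusted p = 0.726; −0.52 without P7 WT replicate 3), and the difference between these changes, −2.60, did not pass its own test (limma, adjusted p = 1). The group mean was above 7 only in P0 Plk3-KO, P0 WT and P7 Plk3-KO. The fall in Plk3-KO retinas is thus in part set by the minimum, and both WT means of this step lay below it. The call in Plk3-KO retinas was lost without adult Plk3-KO replicate 1 or 2, P7 Plk3-KO replicate 1 or 3 or P0 Plk3-KO replicate 1 (adjusted p 0.0504 to 0.144). It was also lost with the actin difference, itself higher in the adult, as a covariate (adjusted p 0.334). The suffix _x_at marks probe sets whose probes can also match other transcripts. The third probe set of Srrm4, 1425774_at, lay between 5.3 and 6.8 on every array.

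Qk was lower at each later age on its 3 highest probe sets. On 1451179_a_at it had 12.7, 12.8 and 12.9 in P0 Plk3-KO, against 12.6, 12.6 and 12.9 in P0 WT, 11.9, 11.6 and 11.4 in P7 Plk3-KO, against 11.8, 11.6 and 12.1 in P7 WT, and 11, 11.1 and 11.5 in adult Plk3-KO, against 10.7, 11 and 11.7 in adult WT. P0 and P7 did not overlap, and P7 and the adult overlapped. It fell by 1.17 from P0 to P7 in Plk3-KO retinas (standard error 0.233, limma, adjusted p = 0.00187) and by 0.87 in WT retinas (adjusted p = 0.015). Without P7 WT replicate 2 or P0 WT replicate 3 the WT call was lost (adjusted p 0.0629 and 0.0678). The fall by 0.70 from P7 to the adult in WT retinas lay at the threshold (limma, adjusted p = 0.0486). It stayed under it when adult WT replicate 3, adult Plk3-KO replicate 3 or P7 WT replicate 2 was left out, and not when any of the other 15 arrays was (adjusted p 0.0511 to 0.231), nor in 5 other settings (0.0669 to 0.309). In Plk3-KO retinas the same step was −0.43 (adjusted p = 0.221).

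On 1429318_a_at Qk had 12.4, 12.5 and 12.4 in P0 Plk3-KO, against 12.5, 12.2 and 12.6 in P0 WT, 11.2, 10.2 and 11.7 in P7 Plk3-KO, against 11, 11.3 and 10.8 in P7 WT, and 9.7, 10.1 and 10.3 in adult Plk3-KO, against 9.9, 9.8 and 10.7 in adult WT. It fell by 1.40 from P0 to P7 in either genotype (standard error 0.312, limma, adjusted p = 0.00431 in Plk3-KO retinas, 0.00459 in WT). From P7 to the adult it fell by 1.0 in Plk3-KO retinas (adjusted p = 0.037), where the P7 array labelled Plk3-KO replicate 2 overlapped the adult arrays, and in WT retinas the difference of −0.90 did not pass (adjusted p = 0.0575), although the arrays did not overlap. The Plk3-KO call was lost without adult Plk3-KO replicate 1 or 2 or P7 Plk3-KO replicate 1 or 3 (adjusted p 0.0693 to 0.175) and with the actin covariate (adjusted p 0.271). The third, 1417073_a_at, had 11.2, 11.2 and 10.7 in P0 Plk3-KO, against 10.8, 10.8 and 11.3 in P0 WT, 10.3, 10.6 and 10.6 in P7 Plk3-KO, against 10.3, 10.6 and 10.3 in P7 WT, and 10, 9.9 and 9.5 in adult Plk3-KO, against 9.8, 10.3 and 10.1 in adult WT. Its steps were smaller than those of 1429318_a_at. From P0 to P7 it differed by −0.53 in Plk3-KO retinas and −0.57 in WT, and from P7 to the adult by −0.33 in WT retinas. None of these passed the test (limma, adjusted p 0.0657 to 0.278). It fell by 0.70 from P7 to the adult in Plk3-KO retinas (standard error 0.206, limma, adjusted p = 0.0281), but not past the test without adult Plk3-KO replicate 3, P7 Plk3-KO replicate 2 or P7 Plk3-KO replicate 3 (adjusted p 0.089, 0.0816 and 0.0865), without the 4 arrays that stood apart (adjusted p 0.121) or with the actin covariate (adjusted p 0.283). On 1425597_a_at, which passed the minimum through P0 WT alone, Qk had 6.2, 7.6 and 6.9 in P0 Plk3-KO, against 6.8, 7.9 and 7.5 in P0 WT, and 5.5, 5.7 and 6.6 in P7 Plk3-KO, against 4.8, 5.6 and 4.6 in P7 WT. The fall by 2.4 in WT retinas (limma, adjusted p = 0.00971) is in part set by that filter, and in Plk3-KO retinas the difference of −0.97 did not pass (adjusted p = 0.299). The remaining probe sets were 1429735_at, between 5.5 and 9.7 with no call, and 1429736_at and 1441964_at, below 7 in every group mean.

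Khdrbs1 is the member with the most disagreement among its probe sets. The one with the highest mean, 1434541_x_at, had 12.6, 12.4 and 13.4 in P0 Plk3-KO, against 12.7, 12.9 and 13.1 in P0 WT, 11.8, 13.0 and 11.5 in P7 Plk3-KO, against 12.3, 12.3 and 12.6 in P7 WT, and 12.2, 12.1 and 10.5 in adult Plk3-KO, against 12.3, 12.4 and 11.8 in adult WT. No comparison called it. The array labelled P7 Plk3-KO replicate 2 was the highest at P7 and adult Plk3-KO replicate 3 the lowest of all 18. On 1418628_at Khdrbs1 had 10.3, 10.5 and 10.3 in P0 Plk3-KO, against 10.4, 10.3 and 10.3 in P0 WT, 9.4, 9.2 and 9.6 in P7 Plk3-KO, against 9.3, 9.6 and 8.1 in P7 WT, and 9.5, 9.2 and 9.7 in adult Plk3-KO, against 9.7, 9.7 and 9.2 in adult WT. All P0 arrays lay above all later ones. It fell by 0.97 from P0 to P7 in Plk3-KO retinas (standard error 0.29, limma, adjusted p = 0.0265) and by 1.33 in WT retinas (standard error 0.29, limma, adjusted p = 0.0038). The call in Plk3-KO retinas was lost without P7 Plk3-KO replicate 1 or 2 or any 1 of the 3 P0 Plk3-KO arrays (adjusted p 0.0584 to 0.0916). Without P7 WT replicate 3, which held the 8.1, it fell by 0.88 in WT retinas (adjusted p 0.00749).

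On 1437389_x_at Khdrbs1 had 11.8, 12.2 and 11.9 in P0 Plk3-KO, against 11.8, 11.1 and 11.7 in P0 WT, 10.3, 11 and 10.5 in P7 Plk3-KO, against 10.4, 10.1 and 11.1 in P7 WT, and 10.8, 10.8 and 12.3 in adult Plk3-KO, against 11, 11 and 10.3 in adult WT. It fell by 1.37 from P0 to P7 in Plk3-KO retinas (standard error 0.369, limma, adjusted p = 0.015), and without P7 Plk3-KO replicate 1 or P0 Plk3-KO replicate 2 the adjusted p was 0.0603 and 0.0606. In WT retinas the difference was −1.0 and did not pass the test. The low probe set 1418630_at, above 7 at P0 only, had 6.5, 7.1 and 7.5 in P0 Plk3-KO, against 7.1, 6.6 and 7.6 in P0 WT, 5.2, 4.4 and 6.1 in P7 Plk3-KO, against 5.4, 5.8 and 5.5 in P7 WT, and 4.8, 4.8 and 3.2 in adult Plk3-KO, against 5.4, 5.5 and 4.9 in adult WT. It fell by 1.80 from P0 to P7 in Plk3-KO retinas (limma, adjusted p = 0.0333), a call lost without P7 Plk3-KO replicate 1 or 2 or P0 Plk3-KO replicate 2 or 3 (adjusted p 0.0809 to 0.142) and with replicate number as a block (adjusted p 0.0508), and in WT retinas the difference of −1.53 did not pass (adjusted p = 0.0689). As this probe set passed the minimum through P0 alone, its fall in either genotype is in part set by that filter. On 1418629_a_at the 18 arrays lay between 9.0 and 12 with no call, and 1438461_at lay between −2.4 and 3.4. The last of the 7, the third _x_at probe set in order of its number, is described with the genotypes, and it was not called between ages.

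**Figure D2:**
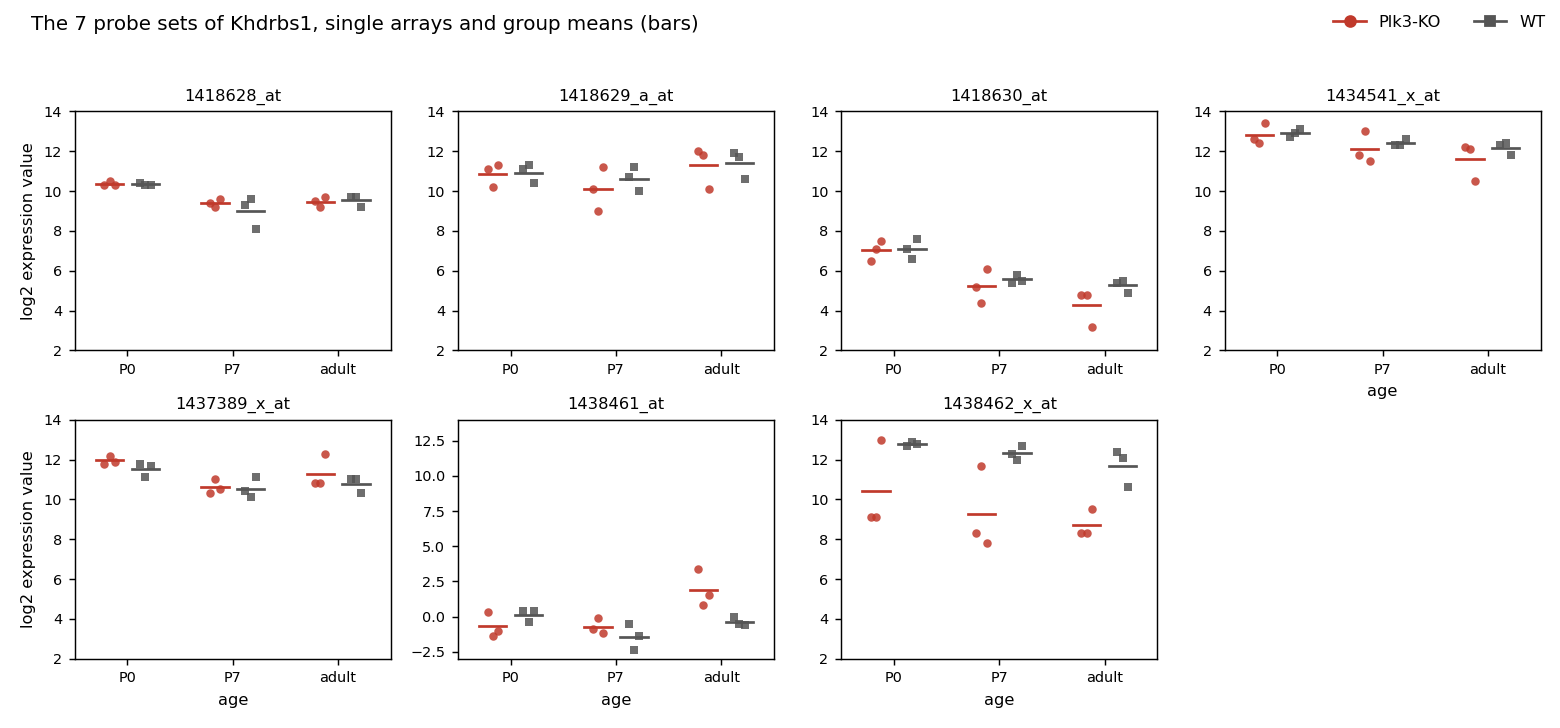
Log2 expression value of the 7 Khdrbs1 probe sets by age, with 1 point per array (Plk3-KO circles, left, and WT squares, right) and bars at the group means; the axis of 1438461_at reaches lower than the others. On the third _x_at probe set, in the last panel, 7 of the 9 Plk3-KO arrays lie at 7.8 to 9.5, while P0 Plk3-KO replicate 3 (13.0) and the array labelled P7 Plk3-KO replicate 2 (11.7) lie near the WT arrays.

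The paralogs were measured by 1 probe set each. Khdrbs2 (1422117_s_at) had 8.1, 8.2 and 7.6 in P0 Plk3-KO, against 8.1, 8.4 and 8.1 in P0 WT, 8.2, 7.5 and 8.0 in P7 Plk3-KO, against 8.1, 8.1 and 6.8 in P7 WT, and 7.9, 8.1 and 8.5 in adult Plk3-KO, against 8.7, 8.2 and 8.3 in adult WT. Khdrbs3 (1453317_a_at) had 12, 11.9 and 11.6 in P0 Plk3-KO, against 11.8, 12 and 11.5 in P0 WT, 11.7, 10.3 and 11.3 in P7 Plk3-KO, against 11.6, 11.6 and 10.6 in P7 WT, and 11.6, 11.7 and 10.7 in adult Plk3-KO, against 12, 11.8 and 11.4 in adult WT. Both were low on the 2 P7 arrays that stood apart. Their differences between ages lay between −0.73 and 0.73, and none passed the test (limma, adjusted p 0.141 to 0.92).

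Msi1 was nearly level on 1452287_at, with differences between ages of −0.27 to −0.10, although the P7 arrays lay below the P0 arrays in each genotype. It had 13.4, 13.5 and 13.5 in P0 Plk3-KO, against 13.2, 13.3 and 13.3 in P0 WT, 13.2, 13.3 and 13.1 in P7 Plk3-KO, against 13.1, 12.9 and 13.1 in P7 WT, and 13.3, 13.2 and 12.5 in adult Plk3-KO, against 12.9, 12.8 and 13.1 in adult WT. On 1444306_at it had 7.2, 8.0 and 11.1 in adult Plk3-KO, against 7.1, 7.2 and 9.8 in adult WT, while all P0 and P7 arrays lay between 8.6 and 11.1. The high adult values were those of Plk3-KO replicate 3 and WT replicate 3, the adult arrays that stood apart. On 1444306_at P7 minus P0 was −0.73 in Plk3-KO retinas and −1.07 in WT, and adult minus P7 was −1.07 and −1.60. None of these passed the test (limma, adjusted p 0.201 to 0.606). The third Msi1 probe set, 1421409_at, lay between 2.7 and 6.2. No Msi1 probe set was called between ages.

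Nova1 (1426938_at) had 10.4, 10.3 and 10.6 in P0 Plk3-KO, against 10.5, 10.5 and 10.6 in P0 WT, 10.1, 8.9 and 10.1 in P7 Plk3-KO, against 9.9, 10.1 and 9.2 in P7 WT, and 8.8, 9.7 and 9.1 in adult Plk3-KO, against 9.6, 9.6 and 9.8 in adult WT. The P0 arrays lay above all later ones, but P7 minus P0, −0.73 in Plk3-KO retinas and −0.80 in WT, did not pass the test (limma, adjusted p = 0.107 and 0.0791). Its second probe set, 1452245_at, lay between 3.3 and 6.5.

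Rbfox1 rose between P0 and P7 on 1455358_at. It had 9.3, 8.8 and 9.2 in P0 Plk3-KO, against 9.2, 9.7 and 9.4 in P0 WT, 10.8, 10.5 and 10.5 in P7 Plk3-KO, against 10.7, 10.5 and 9.9 in P7 WT, and 9.8, 10.6 and 10 in adult Plk3-KO, against 10, 10.3 and 10.8 in adult WT. Every P7 array lay above every P0 array. The rise was 1.5 in Plk3-KO retinas (standard error 0.264, limma, adjusted p = 0.000678) and 0.93 in WT retinas (standard error 0.264, limma, adjusted p = 0.02). In WT retinas the call was lost without P7 WT replicate 1 or 2 or P0 WT replicate 1 or 3 (adjusted p 0.0597 to 0.0922). On 1418314_a_at the same step was 0.80 in Plk3-KO retinas and 0.40 in WT, with neither past the test (limma, adjusted p = 0.0531 and 0.348), and 1438217_at, between 6.6 and 9.8, was called nowhere. The fourth, 1447735_x_at, was below 7 in every group mean.

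**Figure D3:**
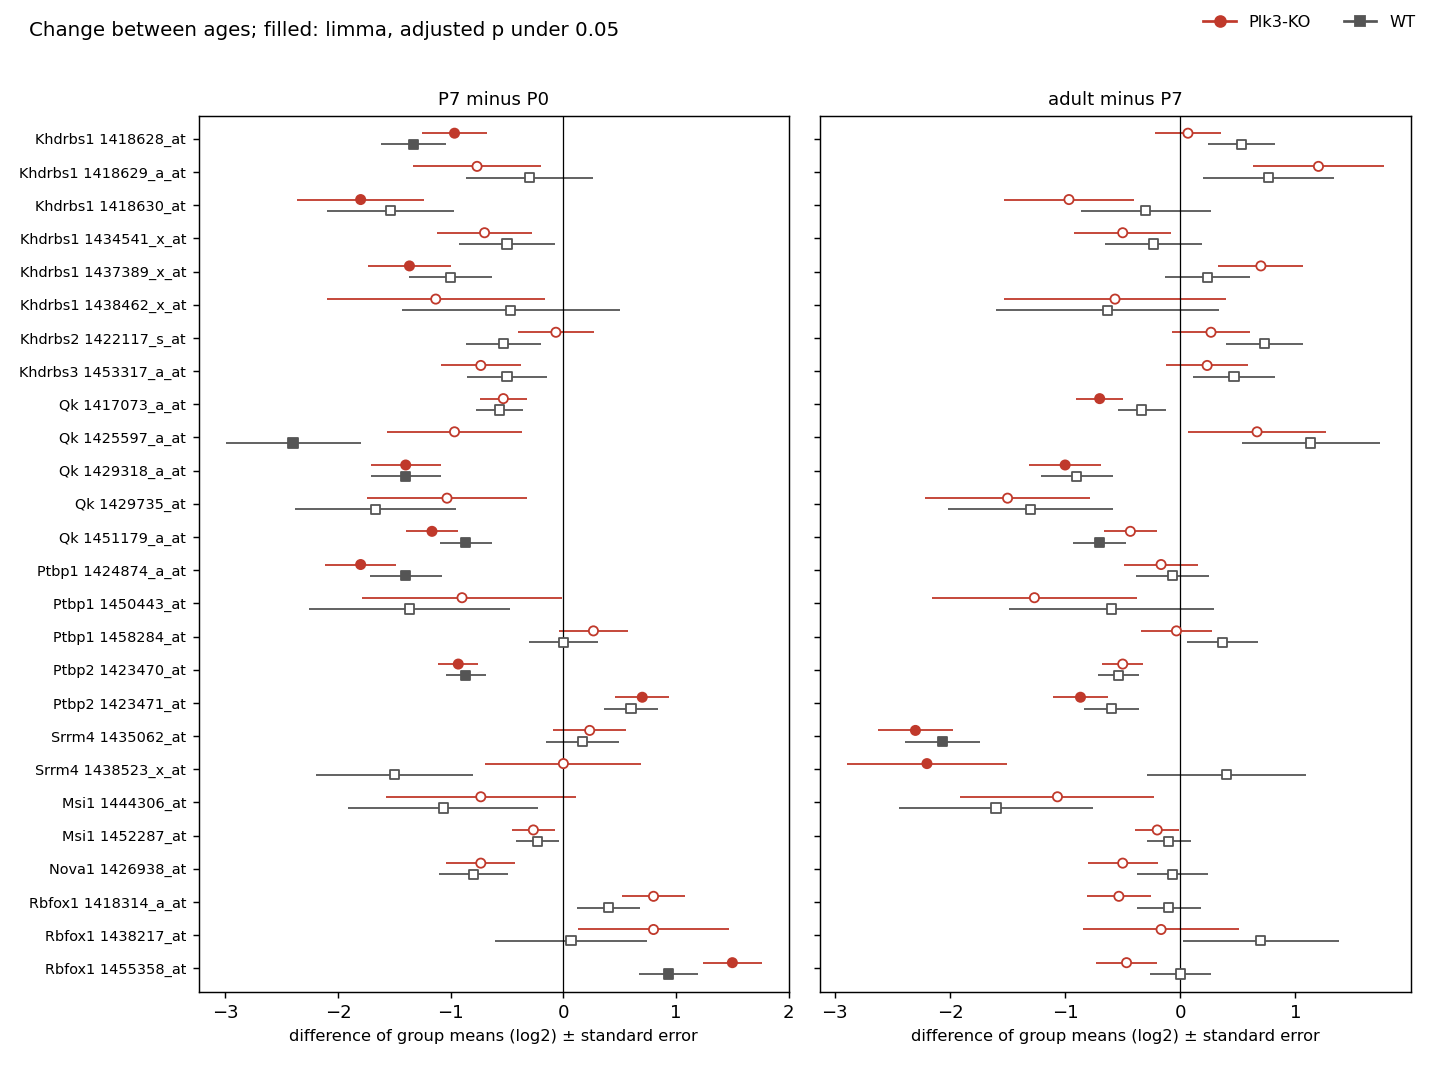
Difference of group means in log2 (x axis) with its standard error from P0 to P7 (left) and from P7 to the adult (right) for the 26 probe sets tested, Plk3-KO circles above and WT squares below in each row; filled symbols passed limma at an adjusted p under 0.05. In the P0 to P7 step 7 filled circles and 6 filled squares lie below 0, and in the step to the adult the 7 filled symbols all do.

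These calls depend on the scaling. Over all probe sets the median P7 minus P0 difference was −0.10 in each genotype on the deposited values and 0.13 once each array was centred on its median, which moved the calls from 2543 higher and 2424 lower to 2366 higher and 1110 lower in Plk3-KO retinas and from 2596 higher and 2220 lower to 2359 higher and 1102 lower in WT retinas. Among the members, centring ended the P0 to P7 calls of Ptbp2 1423470_at (adjusted p 0.234 in Plk3-KO retinas and 0.278 in WT), of Ptbp1 1424874_a_at and Qk 1451179_a_at in WT retinas (0.0742 and 0.179), and of 3 Khdrbs1 probe sets and Ptbp2 1423471_at in Plk3-KO retinas (0.0752 to 0.139), and those of Qk 1451179_a_at in WT retinas and of Qk 1417073_a_at and Ptbp2 1423471_at in Plk3-KO retinas from P7 to the adult (0.232, 0.231 and 0.132), and it reversed none of the called differences. Some calls near the threshold also ended when all 45037 probe sets were tested (Srrm4 1438523_x_at at 0.0514 and Qk 1429318_a_at at 0.0534, both from P7 to the adult in Plk3-KO retinas), and that of Khdrbs1 1418630_at ended with quantile normalization (0.0809). With the t-test of the methods, after Benjamini-Hochberg adjustment, 6 members were called between P0 and P7 in Plk3-KO retinas and 2 in WT, against 13.2% and 11% of all probe sets, and 0 in either genotype between P7 and the adult, against 1.92% and 2.16% of all, where Srrm4 1435062_at had an adjusted p of 0.0993 in Plk3-KO retinas and 0.0883 in WT.

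Genotype was compared at each age and over the mean of the 3 ages. No member was called, and neither was any other probe set: 0% of 22611 at P0, 21390 at P7, 21005 in the adult and 25085 over the 3 ages (limma, adjusted p under 0.05), with 85, 123, 1008 and 396 at an unadjusted p under 0.05. By limma 1 member had an unadjusted p under 0.05 in each of these comparisons, the third _x_at probe set of Khdrbs1 each time. The t-test of the methods also called 0 probe sets at each age after Benjamini-Hochberg adjustment, with 503 at P0, 250 at P7 and 660 in the adult at an unadjusted p under 0.05. Among them were 1 member at P0, Msi1 1452287_at, 0 at P7 and 1 in the adult, the Khdrbs1 probe set. With no difference between genotypes, a share of 0.05 of the probe sets would on average have an unadjusted p under 0.05. The unadjusted counts over all probe sets lay below that share, those of limma at P0, at P7 and over the 3 ages far below. The absence of calls thus does not show that the genotypes were alike. The reason for the low counts was not tested. The counts over all probe sets rested on a few arrays. In the adult 387 were called without the 4 arrays that stood apart (366 higher and 21 lower), 105, all higher, without adult WT replicate 3 alone, 4 without adult Plk3-KO replicate 2 alone and 1452 with array weights, whose estimate did not converge. Over the 3 ages 16 were called without the 4 arrays, 5 with the actin difference as a covariate and 82 with array weights. The third _x_at probe set of Khdrbs1 had 9.1, 9.1 and 13.0 in P0 Plk3-KO, against 12.7, 12.9 and 12.8 in P0 WT, 8.3, 11.7 and 7.8 in P7 Plk3-KO, against 12.3, 12 and 12.7 in P7 WT, and 8.3, 8.3 and 9.5 in adult Plk3-KO, against 12.4, 12.1 and 10.6 in adult WT. P0 Plk3-KO replicate 3 lay above every WT array, the array labelled P7 Plk3-KO replicate 2 lay just below those of P7 WT, and the other 7 Plk3-KO arrays lay below all 9 WT arrays. The difference was −2.4 at P0, −3.07 at P7 and −3.0 in the adult. Without P0 Plk3-KO replicate 3 it was −3.7 at P0. The study names Khdrbs1 among genes that were higher without Plk3 at P7 and P0, and its text gives no probe set. It used a two-tailed t-test and names no adjustment. For the claim the study refers to its supplementary lists of changed genes at these ages, which were not used here. With that test no tested Khdrbs1 probe set had an unadjusted p under 0.05 at P7 or P0 here. The claim was thus not matched from the deposited values, and the probe set behind it was not identified. The third _x_at probe set lay in the opposite direction under the labels used here. At each of these ages some other Khdrbs1 probe sets were higher and some lower. Over the 3 ages the difference of the third _x_at probe set was −2.82 (95% interval −4.00 to −1.64, limma, adjusted p = 0.363). The probe set is described in full because of this difference.

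The call on this probe set changed with the handling of the arrays. Over the 3 ages it was past the threshold without the 4 arrays that stood apart (−3.48, adjusted p = 0.0237), with the actin difference as a covariate (−3.26, adjusted p = 0.0382) and with array weights (−3.59, adjusted p = 0.000125), whose estimate did not converge. The 4 arrays include the one labelled P7 Plk3-KO replicate 2. Leaving out that array alone gave −3.23 (adjusted p = 0.116), leaving out P0 Plk3-KO replicate 3 alone gave −3.26 (adjusted p = 0.0556), and leaving out any other array gave −2.58 to −3.01. On the same 2 arrays Plk3 had the lowest values of its Plk3-KO groups, 6.1 and 7.5. The other 25 probe sets tested, 5 of them for Khdrbs1, differed by −0.47 to 0.34 over the 3 ages, each with an adjusted p of 1. For the remaining Khdrbs1 probe sets the differences were −0.32 on 1434541_x_at (95% interval −0.84 to 0.20), 0.34 on 1437389_x_at (−0.11 to 0.80), 0.12 on 1418628_at (−0.23 to 0.48), −0.23 on 1418629_a_at (−0.93 to 0.46) and −0.47 on 1418630_at (−1.16 to 0.22).

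**Figure D4:**
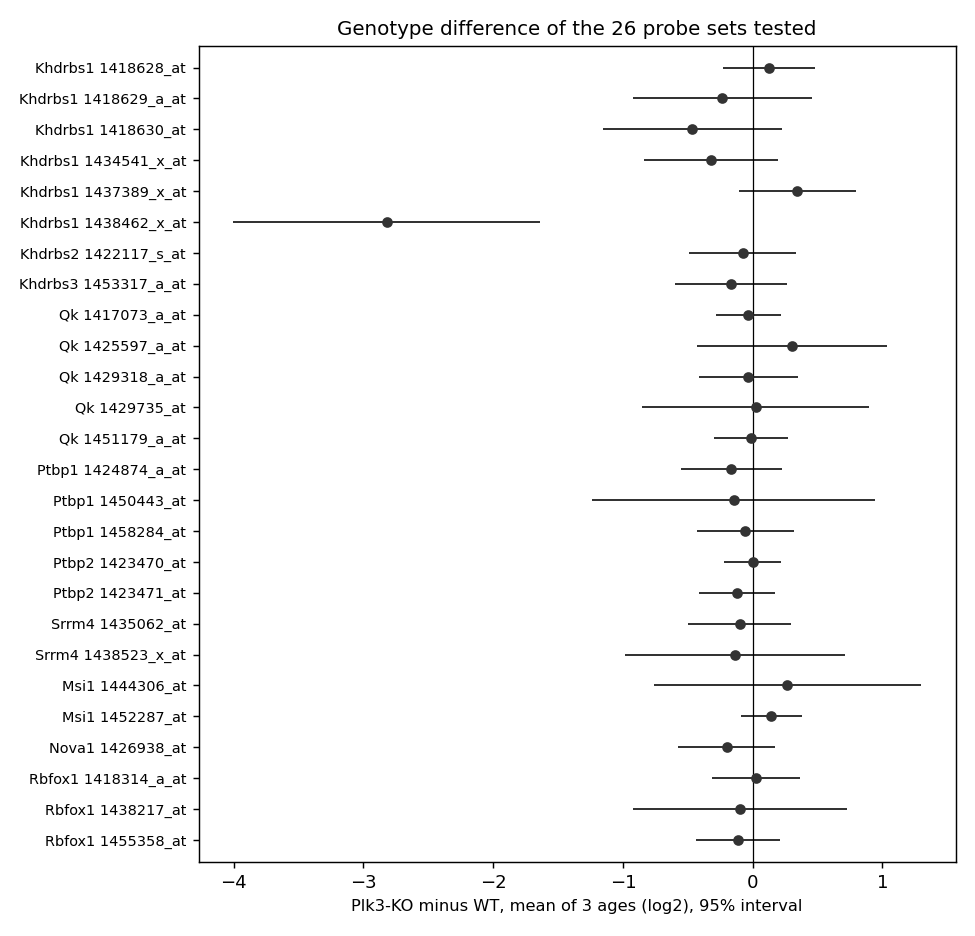
Plk3-KO minus WT difference over the mean of 3 ages in log2 (x axis), with 95% intervals not adjusted over probe sets, for the 26 probe sets tested. The third _x_at probe set of Khdrbs1 lies at −2.82 and its interval does not reach 0, while the other 25 lie between −0.47 and 0.34 with intervals that include 0.

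Intervals set how large a genotype difference could be for the highest-mean probe sets. Over the 3 ages Ptbp2 1423470_at had −0.22 to 0.22, Msi1 1452287_at −0.09 to 0.38, Qk 1451179_a_at −0.30 to 0.27, Rbfox1 1418314_a_at −0.32 to 0.36, Srrm4 1435062_at −0.50 to 0.30, Ptbp1 1424874_a_at −0.56 to 0.22, Nova1 1426938_at −0.57 to 0.17, Khdrbs2 1422117_s_at −0.49 to 0.33 and Khdrbs3 1453317_a_at −0.60 to 0.27. Single ages gave little more. The arrays of the 2 genotypes were fully separate for 1 of 26 members at P0, Msi1 1452287_at as higher, against 3.49% of all probe sets tested, and for the third _x_at probe set of Khdrbs1 as lower at P7 and in the adult, 1 of 23 and 1 of 21, against 1.92% and 5.48% of all. Some members below the minimum in the adult, which were not tested there, were also fully separate at that age. Qk 1441964_at, Srrm4 1438523_x_at and Khdrbs1 1418630_at were lower in Plk3-KO, and Khdrbs1 1438461_at was higher. The change with age did not differ between genotypes past the test for any member or any other probe set, 0% of 25085 (limma, smallest adjusted p among the members 1), with 128 probe sets at an unadjusted p under 0.05 for the P0 to P7 step and 351 for the step to the adult. For the step to the adult 10 probe sets, none of them members, were called without the 4 arrays that stood apart, 2 without adult Plk3-KO replicate 2 alone and 282 with array weights.

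The genes whose pattern was most like that of 3 members were looked up among 21448 probe sets with a single symbol, by Pearson's r over the 18 arrays, as a description. For the third _x_at probe set of Khdrbs1 they were 1700086P04Rik (r = 0.856), Tmem35b (r = 0.833) and Med8 (r = 0.818), the last a subunit of the Mediator complex. All 3 lie on chromosome 4, as do Khdrbs1 and Plk3. The study already names Med8 as lower without Plk3 and places its recurrently changed genes, Khdrbs1 and Med8 included, on this chromosome. Med8 (1442417_at) had 5.0, 5.1 and 6.3 in P0 Plk3-KO, against 6.9, 7.5 and 7.0 in P0 WT, 4.5, 5.2 and 5.1 in P7 Plk3-KO, against 7.2, 7.1 and 6.0 in P7 WT, and 4.6, 4.2 and 6.0 in adult Plk3-KO, against 7.0, 6.8 and 7.3 in adult WT. Each Plk3-KO array lay below the WT arrays of its age, those labelled P0 Plk3-KO replicate 3 and P7 Plk3-KO replicate 2 included, but both P7 group means were below the minimum of 7. For Ptbp1 1424874_a_at the most alike were Lhx2, a homeobox gene of retinal progenitors and Müller glia, and Adss (r = 0.971 each) and Elovl5 (r = 0.97). For Srrm4 1435062_at they were Nexmif (r = 0.977), Pak3 (r = 0.971) and Tet1 (r = 0.97). The arrays of an age share their stage, so r over the 18 arrays largely follows age in Ptbp1 and Srrm4.

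Other splicing regulators were counted by gene, each on its highest-mean probe set. Of 19 further neuronal RNA-binding regulators tested, 4 rose and 2 fell between P0 and P7 in Plk3-KO retinas and as many in WT retinas, where 25.9% and 24.3% of all 12109 genes were called. Between P7 and the adult 1 rose and 5 fell in Plk3-KO retinas, and 1 rose and 3 fell in WT retinas, against 21.6% and 22.4% of all genes. Mbnl1, a muscleblind protein that promotes mature splicing patterns, rose by 1.90 from P0 to P7 in Plk3-KO retinas (limma, adjusted p = 1.9e-05) and by 1.47 in WT retinas (adjusted p = 0.000252). Mbnl2 rose by 0.57 and 1.13 in the successive steps in Plk3-KO retinas (adjusted p = 0.0473 and 0.000828) and by 0.80 and 0.90 in WT retinas (adjusted p = 0.00734 and 0.00447). Ptbp3, a further paralog of Ptbp1, fell by 0.83 from P0 to P7 in Plk3-KO retinas (adjusted p = 0.00204) and by 0.80 in WT retinas (adjusted p = 0.00297), and in WT retinas it fell by a further 0.97 to the adult (adjusted p = 0.00109). Rbfox2 fell by 1.27 from P0 to P7 in WT retinas (adjusted p = 0.0211), and in Plk3-KO retinas its difference of −1.03 did not pass (adjusted p = 0.055).

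Among 15 hnRNP genes, which encode general RNA-packaging and splicing proteins, 5 fell and 0 rose between P0 and P7 in Plk3-KO retinas, and 2 fell and 0 rose in WT retinas, which is 33.3% and 13.3% of them against the 25.9% and 24.3% of all genes. To the adult, 2 fell in Plk3-KO retinas and 1 in WT, against 21.6% and 22.4% of all genes. Hnrnpa0 fell by 0.67 from P0 to P7 in both genotypes (limma, adjusted p = 0.0159 in Plk3-KO retinas and 0.0165 in WT), and Hnrnpa1 fell by 1.1 from P7 to the adult in Plk3-KO retinas (adjusted p = 0.0372) and by 1.37 in WT retinas (adjusted p = 0.0126). Among 11 genes of SR proteins, serine- and arginine-rich factors that bind exonic enhancers, 2 fell from P0 to P7 in Plk3-KO retinas and 1 in WT, 18.2% and 9.09% of them against 25.9% and 24.3% of all genes. To the adult 3 fell in Plk3-KO retinas and 2 in WT, 27.3% and 18.2% of them against 21.6% and 22.4% of all genes. Srsf2 fell by 0.93 from P0 to P7 in Plk3-KO retinas (adjusted p = 0.00358) and by 1.07 in WT retinas (adjusted p = 0.00141), and Srsf6 fell by 1.13 to the adult in both (adjusted p = 0.0156 in Plk3-KO retinas and 0.0158 in WT). The median P7 minus P0 difference was −0.17 in Plk3-KO retinas and −0.03 in WT for the neuronal regulators, −0.43 and −0.40 in the same order for the hnRNP genes and −0.50 and −0.37 for the SR genes, beside 0.03 and 0.07 over all genes. No gene of the 3 lists differed between genotypes past the test.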

How the data were processed

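The authors ran MAS5 in the Bioconductor Affy package for background adjustment and normalization and deposited log2 values with 1 decimal, for 45101 probe sets on each of 18 arrays. The version of MAS5 and the genome build of the annotation are not given in the sources used here. Some low values are negative. Retinas at E16.5 were not analysed here. The number of arrays limits the precision.

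No normalization was added to the deposited log2 values. The 64 Affymetrix controls were dropped, and 34945 of the remaining probe sets carried 1 gene symbol, 932 several and 9160 none, and 34741 matched the gene table of GRCm38.p6 by gene ID, used for names and chromosomes. Arrays were grouped by their labels. With limma 3.58.1 in R 4.3.3 (statmod 1.5.0), each of the 6 groups was given its own mean in 1 linear model over all arrays (12 residual and 4.07 prior degrees of freedom, variances moderated along the mean). Benjamini-Hochberg adjustment was made within each comparison over all probe sets above the minimum of the methods, a mean above 7 in either genotype at that age or, for comparisons that span ages, in any group. The threshold was 0.05. The methods' two-tailed t-test was run as an alternative with a pooled variance.

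The members and gene lists were chosen with earlier results of these data known. Described by name were the probe set with the highest mean per member and every further member probe set that was called. A tested probe set was also described where the genotypes differed by 1 or more in the mean of the 3 ages. Up to 2 genes that rose and 2 that fell were named per list. So were the 3 genes most like the third _x_at probe set of Khdrbs1 (1438462_x_at), Ptbp1 and Srrm4 in pattern. Plk3, Msi1 1444306_at and the other probe sets given by array were added after their values were seen. Hnrnpa3 and Srsf7 were not used here, nor were some retinal marker genes. Alternatives were no minimum, a minimum of 8, quantile normalization, centring on array medians, moderation without trend, array weights, replicate number as a block, actin 3' minus 5' as a covariate, and leaving out 4 arrays or each array in turn.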

Additional observations from a re-analysis of the deposited data

How the results depend on the processing

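None of the 23 called changes of members with age, and none of the genotype differences of the third _x_at probe set of Khdrbs1, changed direction under any alternative run. Of the 81 changes with age that were not called, 27 changed direction in at least 1 alternative, among them Ptbp1 1424874_a_at from P7 to the adult in Plk3-KO retinas (0.01 to 0.63 in 3 settings) and in WT (0.03 to 0.50 in 5 settings), and so did 55 of the 96 genotype differences. The share of all probe sets called is given in brackets. The number of members called between P0 and P7 in Plk3-KO retinas, 9, was 5 with arrays centred on their medians (13.9% of all) and 12 with array weights (40.0%). It was 6 with the methods' t-test (13.2%), 11 without the 4 arrays that stood apart (28.6%) and 5 to 10 with 1 array left out. In WT retinas, 7 became 4 with centring (13.8%), 17 with array weights (43.1%) and 2 with the methods' t-test (11%). It was 11 without the 4 arrays that stood apart (30.2%) and 5 to 11 with 1 array left out. Between P7 and the adult in Plk3-KO retinas, 5 became 3 with centring (9.26%), 11 with array weights (44.0%), 0 with the t-test (1.92%), 11 without the 4 arrays (35.4%) and 2 to 8 with 1 array left out. In WT retinas, 2 became 1 with no minimum (8.11%), 4 with a minimum of 8 (21.8%), 1 with centring (10.5%), 1 without trend (16.6%), 10 with array weights (55.0%), 0 with the t-test (2.16%), 5 with the actin covariate (23.2%), 7 without the 4 arrays (42.6%) and 1 to 5 with 1 array left out. Between genotypes 0 members became 1 with array weights in the adult (6.91%), at P7 (0.112%) and over the 3 ages (0.327%). It was also 1 without the 4 arrays in the adult (1.84%) and over the 3 ages (0.0638%). With the actin covariate it was 1 over the 3 ages (0.0199%). Each time this member was the third _x_at probe set of Khdrbs1. The number stayed at 0 with any 1 array left out, as did the comparison of age changes between genotypes. The array weights did not converge. The cause of these shifts was not tested.

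With replicate number as a block, 7 of 26 members were called between P0 and P7 in Plk3-KO retinas and 7 in WT. Of all 25085 probe sets, 4734 and 4531 were called in the same order. Between P7 and the adult 5 members were called in Plk3-KO retinas and 2 in WT, beside 4033 and 4120 of all probe sets. The replicate numbers were not taken to pair the arrays in the main test. The correlation of deviations between arrays of equal number was 0.188, −0.058 and 0.104 at P0, 0.379, −0.485 and −0.61 at P7 and 0.489, 0.098 and 0.544 in the adult. Between arrays of unequal number it was −0.251 to 0.126 at P0, −0.467 to 0.626 at P7 and −0.633 to 0.413 in the adult. In the adult 0.489 and 0.544 thus lay above every pair of unequal number. Whether arrays share a litter or a batch was not tested.

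With 3 arrays per group, small differences could not be seen, and probe sets below the minimum were not tested.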
